A study of Homo sapiens with 3 samples.

Results

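The RNA interference machinery was examined as 10 genes whose products make, export and use small RNAs: DROSHA, DGCR8, XPO5, DICER1, TARBP2, PRKRA, AGO1, AGO2, AGO3 and TNRC6A. They are 10 of the 21357 genes that the platform annotation names. Every probe set whose annotation names one of them was taken, which gave 36 of the 54613 non-control probe sets. RNA of SK-Mel-28 cells, a human melanoma line in long use, was hybridised to 3 Affymetrix U133 Plus 2.0 arrays, each with 1 dye. MTf siRNA arrays 1 and 2 (B1 and B2 in the labels) held RNA from cells with a stably transfected hairpin vector against melanotransferrin (MTf, gene symbol MELTF), and 1 scrambled array held RNA from cells with a scrambled hairpin in the same vector. All 3 cell populations therefore carried the pSilencer 3.1-H1 neo vector, so the comparison sets a targeting hairpin against a scrambled one and holds no cells without a hairpin. Nothing in the labels says whether the siRNA arrays came from separate clones or cultures, so the p-values reflect how far these arrays differ, and that spread may be technical. The scrambled group had no replicate, and in bulk RNA fewer cells of a type and less RNA per cell cannot be told apart.

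Small RNA silencing starts in the nucleus, where the ribonuclease DROSHA and its RNA-binding partner DGCR8 cut hairpins out of primary microRNA (miRNA) transcripts. Exportin 5, encoded by XPO5, carries the hairpins to the cytoplasm, where the ribonuclease DICER1, helped by the double-stranded RNA binding proteins TARBP2 and PRKRA, cuts them to short duplexes. Argonaute proteins (AGO1, AGO2, AGO3) hold 1 strand of the duplex as a guide, and TNRC6A, a GW182 protein, links them to the enzymes that remove poly(A) tails. A vector hairpin transcribed by RNA polymerase III from the H1 promoter enters this route after the DROSHA step, and AGO2 is the Argonaute best known for cutting a perfectly matched target.

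The values are probe set signals on a linear scale, and differences are log2(signal + 47.4) on the siRNA arrays minus the same on the scrambled array. Of the 36 probe sets, 32 passed the filter on dim probe sets and were tested. The other 4, 3 of DICER1 and 1 of AGO3, are given by their signals only. MELTF, the targeted gene, read 18968.0 and 18973.9 on the siRNA arrays against 32607.6 on the scrambled array in its probe set of highest mean, 58.2% of the scrambled signal (limma adjusted p = 0.0699). It passed only with arrays centred, of the alternatives run. Its other probe sets read 10567.0 and 11199.0 against 8284.0, 693.7 and 665.7 against 546.4, and 699.7 and 283.6 against 915.2, and did not pass, so that its probe sets had both signs. The median probe set past the filter differed by 0.11. The members' differences were tested against 0, and this shift was taken off only in the alternatives with other scaling. Probe sets for ribosomal RNA stood at 3.76 times the scrambled array on siRNA array 1, in the median, and at 1.06 times on siRNA array 2, and the part of this in the results was not tested. All 7 melanocyte markers on the arrays passed the filter, among them MLANA at 63275.3 and 69169.1 on the siRNA arrays against 61768.6 on the scrambled array, while TYRP1 fell to 5022.3 and 12370.0, against 53204.1. Of the 7, 4 lay above 0 and 3 below, with a median of 0.030. Their signals summed to 242061.5 and 265631.0 on the siRNA arrays against 289527.9 on the scrambled array. Past the filter were 1 of 6 epithelial, 4 of 6 fibroblast, 1 of 4 leukocyte and 1 of 4 endothelial markers. Of these the epithelial splicing factor gene ESRP1 fell to 5566.8 and 4656.0, against 14486.3, and the fibroblast proteoglycan gene LUM rose to 4850.0 and 4840.6, against 598.6. The other 3 fibroblast markers past the filter lay below 0 without passing, and the list's median was -0.18. The leukocyte marker past the filter, LCP1, read 477.8 and 384.7 against 1130.1 (log2 difference -1.31, adjusted p = 0.0804), and the 4 leukocyte markers summed to 657.7 and 575.9 against 1404.4. EPCAM and PTPRC, which define epithelial cells and leukocytes, read at most 94.7 on any array, within the range of the bacterial trp controls (7.0 to 97.2). The part of these markers in the results was not tested.

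Among the 10 genes, AGO2 was the 1 gene with a probe set that passed the test, and it was lower with the siRNA. The XPO5 probe sets were lower on both siRNA arrays. Those of DICER1 and TARBP2, and the tested ones of AGO3, were higher on both, and none of these passed the threshold. Across the genes, 1 of 32 tested probe sets had a limma adjusted p under 0.05 (3.12%), against 2.09% of all 27306 probe sets tested, of which 1.19% were higher and 0.905% lower. An unadjusted p under 0.05 was seen for 5 of the 32 (15.6%), against 20.2% of all probe sets. Of the 5, 2 were higher (6.25%, against 12.4% of all) and 3 lower (9.38%, against 7.77% of all). Both siRNA arrays were above the scrambled array for 15 of the 32 (46.9%, against 46.4% of all) and below it for 10 (31.2%, against 30.9% of all), and for 7 they lay on both sides (21.9%, against 22.7% of all). These last shares lay close to those of the whole array. The median difference was 0.073 over the 32, and 0.11 over all probe sets tested. The smallest difference called among all probe sets was 0.90, and the number of arrays limits the precision.

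**Figure D1:**
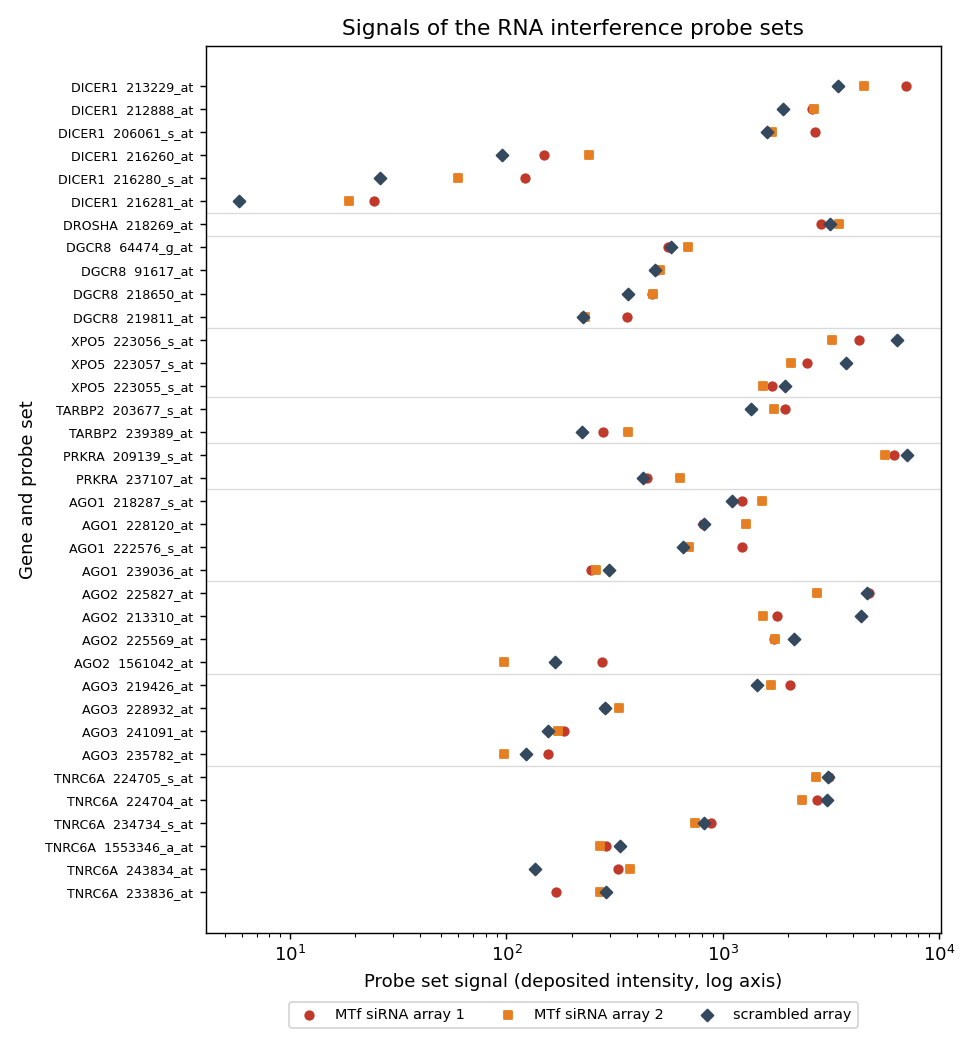
Signal of each of the 36 probe sets (rows, grouped by gene) on MTf siRNA array 1, MTf siRNA array 2 and the scrambled array, on a log axis of the deposited intensity. The siRNA arrays lie left of the scrambled array for all 3 XPO5 probe sets and right of it for all 6 DICER1 probe sets, and the widest gap to the left among probe sets past the filter is AGO2 213310_at.

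DROSHA, the nuclear ribonuclease, had 1 probe set (218269_at). It read 2842.8 and 3461.3 on the siRNA arrays against 3117.6 on the scrambled array, so the siRNA arrays lay on either side of the scrambled one. The difference was 0.0088 ± 0.24 (SE; 95% interval -0.56 to 0.58; limma adjusted p = 0.990), and its sign turned with quantile normalization and with arrays centred on their medians. No change of DROSHA was detected, and any value within that interval stays compatible with the 3 arrays.

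DGCR8, the partner that recognises the hairpin stem, was named by 4 probe sets, and each of them is annotated to MIR1306 as well. MIR1306 and MIR3618 are miRNA genes that lie within the span of DGCR8 on chromosome 22, so a reading of the primary transcript belongs to both. The reference accession behind 2 of the 4, 218650_at and 219811_at, is a DGCR8 transcript. The mature miRNAs of MIR1306 and MIR3618 are shown because their hairpins sit inside the gene of the complex that cuts them. The seed, bases 2 to 8, is in capitals, and sequences are RefSeq's on build GRCh38.p14, plus strand (miR-1306-5p at chr22:20086072-20086093, miR-1306-3p at chr22:20086112-20086129 and miR-3618 at chr22:20085797-20085818).
hsa-miR-1306-5p: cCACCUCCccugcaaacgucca
hsa-miR-1306-3p: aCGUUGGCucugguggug
hsa-miR-3618: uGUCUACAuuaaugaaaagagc
The seeds all differ. The arrays do not measure the mature miRNAs.

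The probe sets on the DGCR8 reference transcript were above the scrambled array on both siRNA arrays. Probe set 218650_at read 471.2 and 474.9 against 363.6 on the scrambled array (log2 difference 0.34 ± 0.33, SE; adjusted p = 0.616). Probe set 219811_at read 360.4 and 231.5 against 225.3, with the excess almost wholly on array 1 (0.31 ± 0.42, SE; adjusted p = 0.744). In 64474_g_at the siRNA arrays read 560.8 and 688.4 against 577.5 and lay on both sides of the scrambled array. The last, 91617_at, read 496.5 and 514.5 against 487.5, a difference of 0.048. None of the 4 passed, and the last 2 described turned below 0 with quantile normalization or centred arrays.

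XPO5, which exports both miRNA precursors and vector hairpins, was lower on both siRNA arrays in all 3 of its probe sets. The probe set of highest mean, 223056_s_at, read 4261.8 and 3204.4 on the siRNA arrays against 6402.7 on the scrambled array. The siRNA mean was 58.3% of the scrambled signal, with array 2 the lower of the pair (log2 difference -0.78 ± 0.25, SE; 95% interval -1.38 to -0.19; unadjusted p = 0.0160; limma adjusted p = 0.147). Probe set 223057_s_at read 2456.3 and 2057.0 against 3709.5, again with array 2 lower (-0.71 ± 0.25, SE; adjusted p = 0.169). In 223055_s_at the gap was smaller, at 1683.5 and 1536.6 against 1946.0 (-0.27 ± 0.25, SE; adjusted p = 0.609). As the mean of the 3 probe sets, XPO5 differed by -0.59 ± 0.24 (SE; limma adjusted p over genes = 0.189). XPO5 did not pass under any alternative run, where the adjusted p of 223056_s_at ranged between 0.093 and 0.283. Among the 6 genes whose tested probe sets all lay on the same side of 0, XPO5 was the 1 gene below it.

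DICER1, the cytoplasmic ribonuclease, was higher on both siRNA arrays in all 6 of its probe sets, 3 of them past the filter. Probe set 213229_at read 7044.3 and 4493.5 on the siRNA arrays against 3421.9 on the scrambled array, or 206% and 131% of it. Array 1 stood well above array 2 here (log2 difference 0.71 ± 0.30, SE; 95% interval 0.015 to 1.40; unadjusted p = 0.0463; limma adjusted p = 0.239). In 212888_at the siRNA arrays lay close together, at 2574.7 and 2641.4 against 1893.7 (0.45 ± 0.24, SE; adjusted p = 0.344). Probe set 206061_s_at read 2664.2 and 1686.8 against 1599.9, so that the excess was mostly on array 1 (0.40 ± 0.32, SE; adjusted p = 0.541). The mean of the 3 differed by 0.52 ± 0.26 (SE; limma adjusted p over genes = 0.274). The dim probe sets read 149.9 and 241.5 against 95.6 (216260_at), 121.3 and 59.9 against 25.9 (216280_s_at), and 24.3 and 18.8 against 5.8 (216281_at). The scrambled value of each was below the highest bacterial control, so no fold is given for them.

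TARBP2 and PRKRA, which bind the hairpin beside DICER1, had 2 probe sets each, none past the threshold. TARBP2 203677_s_at read 1949.3 and 1724.5 on the siRNA arrays against 1347.8 on the scrambled array (log2 difference 0.43 ± 0.26, SE; adjusted p = 0.398). Its second probe set, 239389_at, read 278.5 and 364.8 against 223.2 (0.44 ± 0.39, SE; adjusted p = 0.586). Both siRNA arrays were thus above the scrambled array in both TARBP2 probe sets, by amounts within the error of the test.

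PRKRA, also known as the activator of the antiviral kinase PKR, gave opposite signs in its probe sets. In 209139_s_at it read 6207.4 and 5611.5 on the siRNA arrays against 7133.9 on the scrambled array (-0.27 ± 0.21, SE; adjusted p = 0.524). In 237107_at it read 448.5 and 632.4 against 429.7 (0.28 ± 0.35, SE; adjusted p = 0.707). The difference of their mean was 0.0059, and no direction for PRKRA was detectable.

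**Figure D2:**
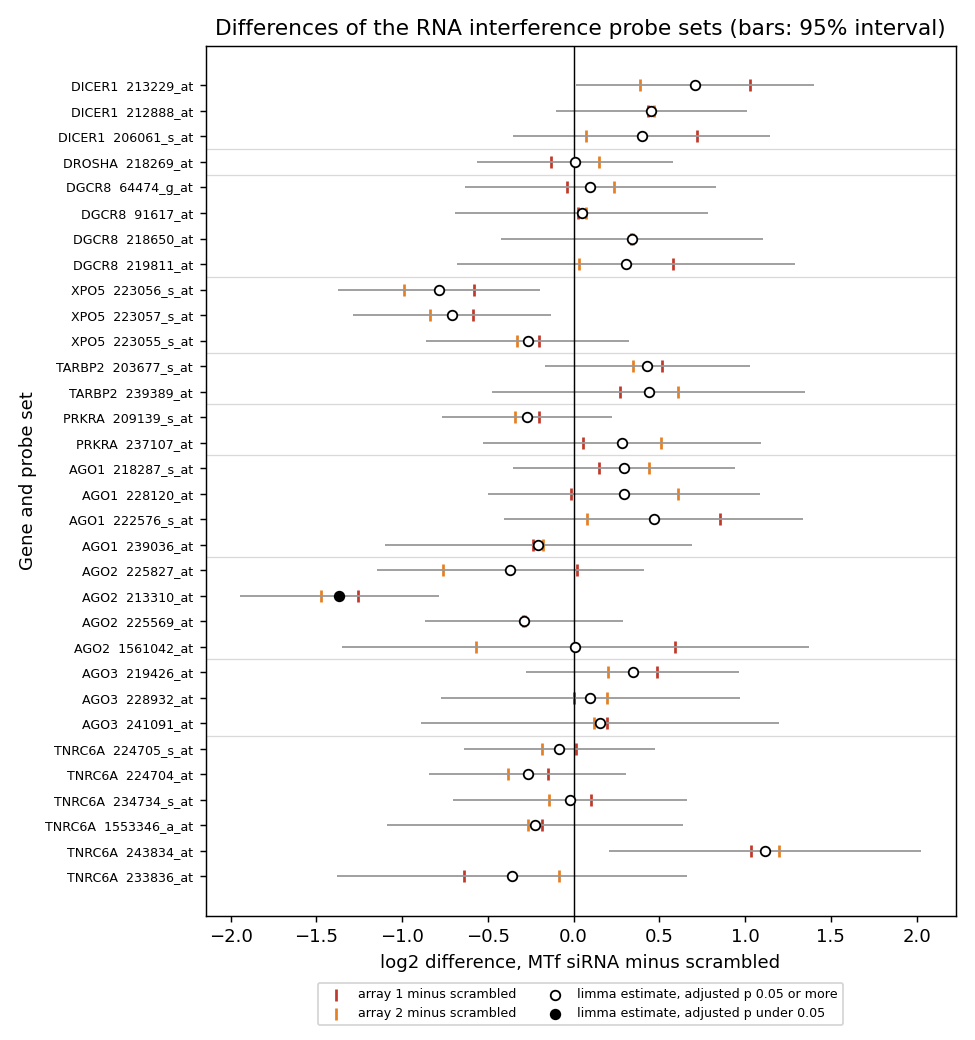
Log2 difference, MTf siRNA minus scrambled, of the 32 tested probe sets, with limma's estimate (circle), its 95% interval (bar) and the value of each siRNA array (ticks). Only AGO2 213310_at is filled, at -1.37 with an adjusted p of 0.0456, and the intervals of the other probe sets reach between 0.49 and 1.36 to each side of their estimate.

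AGO2, the Argonaute that cuts matched targets, had the only call among the 10 genes, and its 4 probe sets differed widely. Probe set 213310_at fell to 1786.2 and 1532.2 on the siRNA arrays, against 4338.0 on the scrambled array, or 41.2% and 35.3% of it. The siRNA arrays lay close together and far below the scrambled one (log2 difference -1.37 ± 0.25, SE; 95% interval -1.95 to -0.78; limma adjusted p = 0.0456). Probe set 225569_at read 1721.7 and 1739.6 against 2123.8, lower on both arrays by a much smaller amount (-0.29 ± 0.25, SE; adjusted p = 0.566). In 225827_at array 1 lay close to the scrambled array and array 2 was lower, at 4727.3 and 2731.4 against 4653.5 (-0.37 ± 0.33, SE; adjusted p = 0.592). The dimmest, 1561042_at, read 275.5 and 96.9 against 166.9, on both sides of the scrambled array (0.010 ± 0.58, SE; adjusted p = 0.996; below 0 with quantile normalization, centred arrays or the smaller pseudocount).

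The AGO2 call was close to the threshold. It was lost with quantile normalization (adjusted p = 0.0655), with no filter (0.138), with a stricter filter at the 75th percentile (0.0699) and with the trend left out (0.157), while the difference lay between -1.54 and -1.37 over the alternatives tested. The platform annotation gives 213310_at, 225569_at and 1561042_at a second symbol, CASC7, which the current gene table lists only as a synonym of AGO2. Without probe sets that the platform annotation gives a second symbol, 0 of the tested probe sets of the 10 genes were called by limma, and 4 reached an unadjusted p under 0.05.

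AGO1 was measured by 4 probe sets. In 218287_s_at it read 1231.1 and 1520.2 on the siRNA arrays against 1108.0 on the scrambled array (log2 difference 0.29 ± 0.28, SE; adjusted p = 0.609). Probe set 222576_s_at read 1220.9 and 695.5 against 654.9, and 228120_at read 810.2 and 1276.8 against 820.2. Array 1 was the high one in 222576_s_at and array 2 in 228120_at, so the siRNA arrays took opposite orders in probe sets of the same gene. The dimmest, 239036_at, read 247.0 and 258.5 against 298.7, below the scrambled array on both (-0.21 ± 0.38, SE; adjusted p = 0.819).

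AGO3, an Argonaute encoded beside AGO1 on chromosome 1, lay above 0 in all 3 tested probe sets. Its 219426_at read 2042.4 and 1664.6 on the siRNA arrays against 1441.5 on the scrambled array (0.35 ± 0.27, SE; adjusted p = 0.519). The 2 dimmer ones, 241091_at (184.1 and 172.3 against 155.0) and 228932_at (284.4 and 332.6 against 284.3), were within 0.16 of 0 and turned below it with quantile normalization or centred arrays. The untested 235782_at read 155.9 and 96.9 against 123.5, on both sides of the scrambled array. No AGO1 or AGO3 probe set had an unadjusted p under 0.05.

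TNRC6A, the GW182 scaffold of silencing, had 5 of 6 probe sets below 0 and 1 well above it. In 224705_s_at it read 3115.1 and 2710.6 on the siRNA arrays against 3079.4 on the scrambled array, with the siRNA arrays on both sides (log2 difference -0.082 ± 0.24, SE; adjusted p = 0.890). Probe set 224704_at read 2738.5 and 2318.3 against 3041.7 (-0.27 ± 0.24, SE; adjusted p = 0.597). The exception was 243834_at, at 329.1 and 373.6 against 136.1, higher on both arrays (1.12 ± 0.39, SE; unadjusted p = 0.0227; adjusted p = 0.170). On the scrambled array alone this probe set lay below the filter's level of 7.74, so it was tested only because of its siRNA signals. The filter thus favoured a rise, and these p-values are no support for one.

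The remaining TNRC6A probe sets, 234734_s_at, 1553346_a_at and 233836_at, differed by -0.020, -0.22 and -0.36 (adjusted p between 0.703 and 0.980). With AGO2 213310_at, TNRC6A 243834_at was 1 of the 2 probe sets at least 2-fold different on both siRNA arrays. That is 1 of 32 higher (3.12%, against 3.93% of all probe sets) and 1 of 32 lower (3.12%, against 1.83% of all). The 1 higher, 243834_at, was tested only because of its siRNA signals. The mean of the 6 TNRC6A probe sets, 243834_at among them, differed by 0.027.

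**Figure D3:**
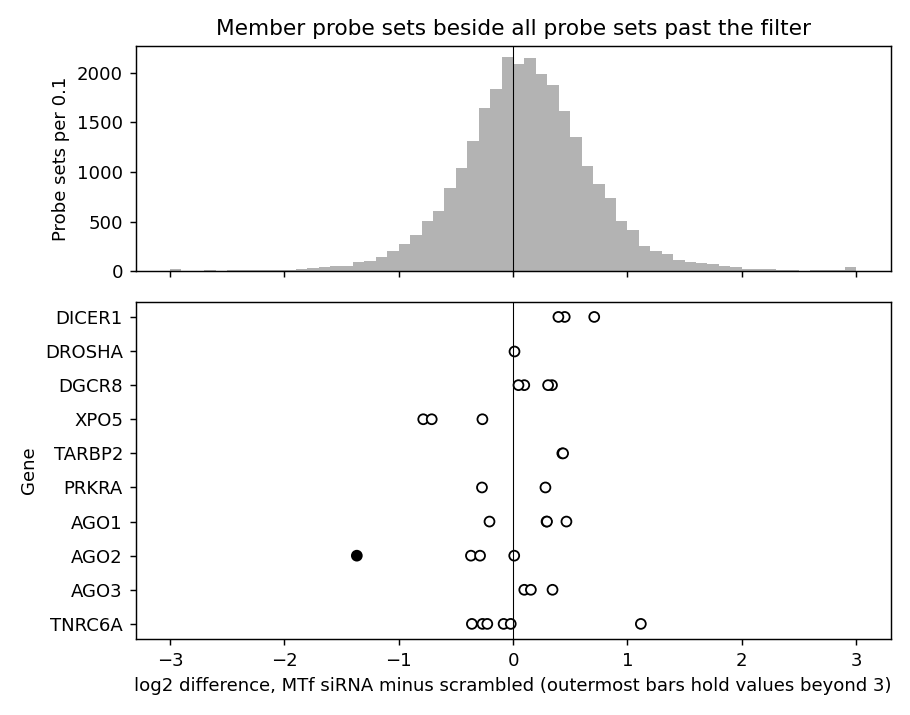
Upper panel, number of probe sets past the filter per 0.1 of log2 difference, MTf siRNA minus scrambled, over all 27306. Lower panel, the 32 tested probe sets by gene, filled where the adjusted p was under 0.05. All but AGO2 213310_at (-1.37) and TNRC6A 243834_at (1.12) lie between -0.78 and 0.71, where most of the array lies.

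Further genes of the pathway were grouped into 7 lists by role, each gene by its single-gene probe set of highest mean. The lists were chosen with earlier results of these data known, so their shares describe them and test nothing. Over all genes 327 of 12386 passed limma's threshold (2.64%), 1.5% higher and 1.14% lower, 22.9% had an unadjusted p under 0.05, and the median was 0.097. In the nuclear list (17 past the filter, with DROSHA), 1 passed. NCBP2, the small subunit of the cap-binding complex, fell to 8055.3 and 8474.3 on the siRNA arrays, against 17311.3 on the scrambled array (log2 difference -1.06 ± 0.19, SE; adjusted p = 0.0456; lost with quantile normalization at 0.058). SRRT, the cap-complex partner known as ARS2 that feeds primary miRNAs to DROSHA, read 6195.8 and 7071.3 against 3068.9, the opposite direction (1.10 ± 0.22, SE; adjusted p = 0.0567). The helicase gene DDX5 (-0.87) and the paraspeckle gene SFPQ (-0.44) were the other low ones, and HNRNPA1 (0.42) and HNRNPA2B1 (0.46) the other high ones. The tested probe sets of HNRNPA2B1 had both signs, with a mean of 0.0095. The list's median was 0.16, or -0.0070 with arrays centred.

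In the list of export, dicing and turnover (14 past the filter, 4 of them XPO5, DICER1, TARBP2 and PRKRA), 0 were called by limma. XPO5 and DICER1 were the 2 with an unadjusted p under 0.05 (14.3%, against 22.9% of all genes). By the probe set of highest mean its extremes were members themselves, with XPO5 lowest and DICER1 highest. As means of probe sets, DIS3L2 (-0.73) and LIN28B (-0.60) lay below XPO5 (-0.59). The DIS3L2 probe sets ran between -1.78 and 0.32, and the gene was named after its value was seen. LIN28B, which blocks let-7 maturation, read 523.9 and 347.8 on the siRNA arrays against 675.0 on the scrambled array (-0.60 ± 0.36, SE; adjusted p = 0.396). TSN, a subunit of the C3PO nuclease, differed by -0.29, and the uridylyl transferase gene TUT1 by 0.42. RAN, the GTPase that exportin 5 needs, read 43540.3 and 49226.9 against 43997.2, on both sides of the scrambled array (0.073 ± 0.17, SE; adjusted p = 0.855; named outside the rule, after its value was seen). The list's median was 0.035, with both signs among the alternatives.

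In the list of Argonautes and their loading partners (25 past the filter), 0 were called by limma, and 3 reached an unadjusted p under 0.05 (12.0%, against 22.9% of all genes). P4HA1, a subunit of the prolyl hydroxylase known to modify AGO2, read 6485.9 and 7822.8 on the siRNA arrays against 3288.1 on the scrambled array (1.10 ± 0.23, SE; adjusted p = 0.0589; in the fit of gene means 0.0332). P4HA1 had 1 probe set past the filter, so its difference was the same in both fits. The helicase gene MOV10 (0.57) and PIWIL4 (0.59) were the next highest, and the lowest were the chaperone gene HSPA4 (-0.46), FXR1 (-0.38) and AGO2 in its probe set of highest mean. The probe sets of FXR1 ran between -0.99 and 0.32. AGO4, the remaining Argonaute of the same clade and named after its value was seen, read 1357.4 and 1779.5 against 1236.5 (0.32 ± 0.28, SE; adjusted p = 0.583).

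Among silencing effectors (35 past the filter) 1 gene passed and 8 had an unadjusted p under 0.05 (22.9%, the share of all genes). LSM14A, a P-body protein that binds the decapping machinery, fell to 3975.1 and 3912.8 on the siRNA arrays, against 10281.7 on the scrambled array (-1.37 ± 0.21, SE; adjusted p = 0.0318). Its other probe sets differed by -0.63 and -0.46 and did not pass, nor did the mean of the 3 (0.0762). XRN1, the exonuclease that degrades decapped RNA, read 1688.3 and 2015.4 against 3533.7 (-0.92 ± 0.25, SE; adjusted p = 0.106), and the ubiquitin ligase gene CNOT4 differed by -0.75 in its brightest probe set, but by -0.18 as the mean of probe sets of both signs. LIMD1, which bridges Argonautes and the cap complex, read 6052.6 and 6404.5 against 3159.0 (0.97 ± 0.21, SE; adjusted p = 0.0700), followed by PATL1 (0.58) and PAN3 (0.56). The LIMD1 probe sets ran between -0.034 and 0.97, with a mean of 0.51. The paralogues of TNRC6A, named after their values were seen, differed by 0.51 (TNRC6B, adjusted p = 0.299) and -0.42 (TNRC6C, adjusted p = 0.538). The list's median was -0.076.

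The list of double-stranded RNA sensors also holds related genes, such as MAVS and IFIT1. It had the highest median of the 7 lists, at 0.46 over 15 genes, though 0 were called by limma in the probe set of highest mean. With the filter at the 75th percentile the median was 0.096 over the fewer genes left. An unadjusted p under 0.05 was seen for 7 (46.7%, against 22.9% of all genes). In the fit of gene means 2 passed by limma, OAS1 (adjusted p = 0.0204) and IFIT1 (0.0273). That fit called more genes over the whole array, 616 against 327 with 1 probe set a gene. IFIT1 had 1 probe set, so its difference was the same in both fits. OAS1, a synthetase of the activator of RNase L, read 809.4 and 1103.7 on the siRNA arrays against 395.8 on the scrambled array (1.16 ± 0.32, SE; adjusted p = 0.107). Its second probe set rose to 961.1 and 1373.5, against 234.3 (2.09 ± 0.33, SE; adjusted p = 0.0345). OAS3 read 916.0 and 1828.9 against 487.9 (adjusted p = 0.135). IFIT1 read 304.1 and 1014.1 against 14.2, a scrambled value within the range of the bacterial controls. That value lay below the filter's level, so IFIT1 was tested only because of its siRNA signals, and its call is no support for a rise. EIF2AK2, which encodes PKR, the kinase that PRKRA activates, read 3281.0 and 3173.5 against 1804.0 (0.82 ± 0.23, SE; adjusted p = 0.114; named after its value was seen). ZNFX1 (-0.087), MAVS (-0.064) and DHX9 (-0.056) were lowest, and MAVS and DHX9 lay above 0 as the mean of their probe sets.

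RNA polymerase III, which transcribes from the H1 promoter of the vector, was listed with a wider set of factors, not all of which that promoter needs. The list had 30 genes past the filter and a median of -0.17. Of these, 23 were below 0 and 7 above, against 42.5% of all genes below 0. By limma 0 were called, and 4 reached an unadjusted p under 0.05 (13.3%, against 22.9% of all genes). The subunit genes POLR1C (2982.5 and 2471.1 on the siRNA arrays against 4883.6 on the scrambled array; adjusted p = 0.118) and POLR3D (-0.80), and SNAPC1 of the complex that binds the H1 promoter (-0.75), were lowest. GTF3A, the 5S RNA gene factor, which the H1 promoter does not need, read 12127.4 and 12518.3 against 7492.3 (0.71 ± 0.19, SE; adjusted p = 0.103), and POLR3B (0.32) and POLR3GL (0.23) followed.

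**Figure D4:**
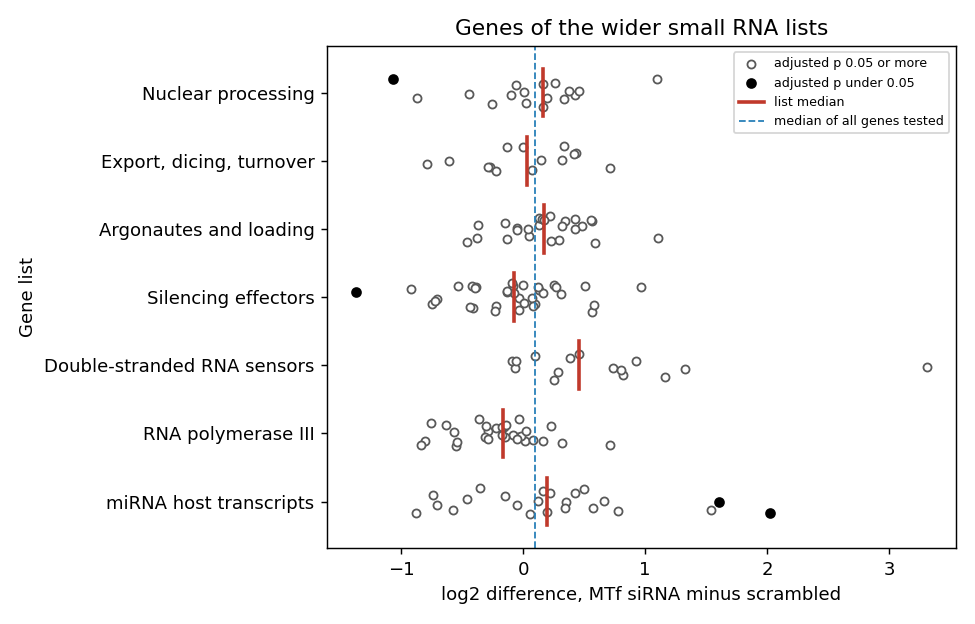
Log2 difference, MTf siRNA minus scrambled, of each gene past the filter in the 7 lists (points; vertical scatter within a list has no meaning), with each list's median (bar) and the median of all genes tested (dashed line, 0.097). The filled genes are NCBP2 and LSM14A on the low side and TRPM1 and DLEU2 on the high side, and the sensor list's median (0.46) lies farthest right.

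Long transcripts that hold miRNA hairpins are the substrates of DROSHA and DGCR8. Of 23 past the filter, 2 rose (8.70%, against 1.5% of all genes higher) and 0 fell by limma. With the list chosen after earlier results were known, these shares are no test of it. An unadjusted p under 0.05 was seen for 6 (26.1%, close to the 22.9% of all genes). TRPM1, a cation channel gene whose span holds miR-211, an abundant melanocyte miRNA, read 4967.8 and 3933.3 on the siRNA arrays against 1052.7 on the scrambled array (2.02 ± 0.26, SE; adjusted p = 0.0228). Its other 2 tested probe sets rose as well, at 2143.5 and 2177.8 against 699.6 and at 1125.8 and 1026.4 against 261.3. DLEU2, a long noncoding gene whose span holds miR-15a and miR-16-1, read 1758.9 and 1473.0 against 498.6 (1.60 ± 0.28, SE; adjusted p = 0.0418). A second DLEU2 probe set, 228.2 and 349.9 against 116.1, did not pass. DNM2, whose span holds miR-638 on its own strand and miR-199a-1 on the other, so that its transcript is no precursor of miR-199a-1, was next, at 658.6 and 635.1 against 191.1 (1.54 ± 0.33, SE; adjusted p = 0.0637; in the fit of gene means 0.0277). DNM2 had 1 probe set past the filter, so its difference was the same in both fits. The lowest were COPZ2 with miR-152 (-0.88, but 0.14 in its second probe set and -0.37 as their mean), RCL1 with miR-101-2 (-0.74) and VMP1 with miR-21 (-0.71), none past the threshold. All 4 list calls (NCBP2, LSM14A, TRPM1 and DLEU2) were lost with no filter, with the stricter filter and with the trend left out, and DLEU2 also with quantile normalization (adjusted p = 0.0695).

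The hairpin of miR-211 is shown as a substrate of the pathway inside a transcript that rose, with its mature arms in capitals (RefSeq, GRCh38.p14, chr15:31065032-31065141, minus strand), the arms being cut free first by DROSHA and then by DICER1. It is followed by the mature miR-15a and miR-16 of DLEU2, with the seed in capitals.
mir-211 hairpin: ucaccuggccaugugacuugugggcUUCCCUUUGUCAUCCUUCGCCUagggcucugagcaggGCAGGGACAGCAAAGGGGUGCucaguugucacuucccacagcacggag
hsa-miR-15a-5p: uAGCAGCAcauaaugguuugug
hsa-miR-16-5p: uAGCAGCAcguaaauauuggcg
The miRNAs of DLEU2 share the seed AGCAGCA. Both are on chromosome 13, minus strand, at chr13:50049167-50049188 and chr13:50049027-50049048. The levels above are those of the host transcripts, and none of these miRNAs was itself measured.

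The PANK genes, whose spans hold miR-103a and miR-107, were named after their values were seen, because these miRNAs are known to target DICER1. The miRNAs are shown with the seed in capitals (RefSeq, GRCh38.p14: miR-107 at chr10:89592756-89592778, minus strand, in PANK1, and miR-103a-3p at chr20:3917541-3917563, plus strand, in PANK2).
hsa-miR-107: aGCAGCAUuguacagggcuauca
hsa-miR-103a-3p: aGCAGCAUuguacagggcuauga
Both carry the seed GCAGCAU. PANK1 read 148.6 and 358.1 on the siRNA arrays against 198.9 on the scrambled array, on both sides of it. PANK2 read 9529.9 and 9966.0 against 12471.8 (-0.35 ± 0.19, SE; adjusted p = 0.358). PANK3, which holds a second copy of miR-103a, read 8121.2 and 7922.1 against 8317.4 (adjusted p = 0.919). None of the PANK hosts passed, and the level of DICER1, higher on both siRNA arrays, was not past the threshold either.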

How the data were processed

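The authors deposited intensities per probe set on a linear scale, made with GCOS 1.3 per the submitters' processing notes. The mean signal after trimming 2% at each end was close to 1000 on every array (1000.12 to 1000.14), so arrays had been scaled. There were 0 value columns of other samples, and 62 control probe sets were left out.

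Signals were taken as log2(signal + 47.4), with the 25th percentile of all signals as pseudocount, which understates differences of dim probe sets. Probe sets with a mean above the 50th percentile (7.74 on the log2 scale) were tested, siRNA against scrambled, with limma 3.58.1 in R 4.3.3 (lmFit, eBayes with a trend) and Benjamini-Hochberg adjustment over all 27306. Each fit left 1 residual degree of freedom, to which moderation added 6.36. The single scrambled array was taken to vary as the siRNA arrays do. The fit was tested on simulated data. Names came from the platform annotation, with symbols set against a current gene table (GRCh38.p14). Levels of different probe sets were not compared.

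Named genes were all probe sets of the 10 genes and of MELTF and, in each list, genes past the threshold and the 3 highest and 3 lowest. No gene was named for likeness of pattern, which 3 arrays cannot rank. Genes and lists were chosen with earlier results of these data known. Alternatives were quantile normalization, median centring, a pseudocount of 16, no filter, a filter at the 75th percentile, no trend, leaving out a siRNA array, leaving out shared probe sets, and the mean of a gene's probe sets.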

Additional observations from a re-analysis of the deposited data

Results flagged for a closer look

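Ribosomal RNA is read by control probe sets that enter no comparison. Their median ratio to the scrambled array was 3.76 for siRNA array 1 and 1.06 for siRNA array 2, and it is given because a signal outside the measurement exceeded its level on the scrambled array.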

How the results depend on the processing

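Over all probe sets, 571 calls became 357 with quantile normalization, 1528 with arrays centred, 1 with no filter, 9 with the stricter one (75th percentile) and 1 with the trend left out. The split of 324 higher and 247 lower turned to 594 and 934 with arrays centred. The 1 call among the 32 tested probe sets became 0 with quantile normalization, no filter, the stricter filter, no trend and, in a setting chosen after seeing the data, over probe sets naming the gene alone. The 2 probe sets at least 2-fold different on both arrays became 1 with quantile normalization, with arrays centred and over probe sets naming the gene alone. The median of the 32, 0.073, was -0.086 with quantile normalization and -0.097 with arrays centred. Leaving out a siRNA array gave medians of the 32 of 0.023 to 0.073, the lower value without siRNA array 2. The stricter filter left 17 member probe sets tested, and the median of those 17 was -0.082.

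Uncalled values turned in sign with quantile normalization for DROSHA 218269_at (-0.0010), DGCR8 64474_g_at (-0.078) and 91617_at (-0.14), AGO2 1561042_at (-0.16), and AGO3 228932_at (-0.10) and 241091_at (-0.0074). With arrays centred these were -0.16, -0.071, -0.12, -0.16, -0.071 and -0.014, in the same order, and AGO2 1561042_at was -0.012 with a pseudocount of 16. As means of their probe sets MAVS (0.10) and DHX9 (0.073) lay above 0. Values of the tested probe sets under the alternatives turned in sign 13 times, lost the call 4 times (AGO2 213310_at) and kept both 224 times.

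With arrays centred the list medians were -0.0070 (nuclear), -0.14 (export and dicing), 0.00043 (Argonaute), -0.25 (effectors), 0.29 (sensors), -0.34 (polymerase III) and 0.025 (hosts), with 2 effector calls and 1 sensor call. With quantile normalization the nuclear median was 0.048 with 0 calls, the export median 0.13, and hosts had 1 call. The nuclear, effector and host calls became 0 with no filter, the stricter filter and no trend. The stricter filter gave medians of -0.0043 (export, as with no filter), 0.15 (Argonaute) and 0.096 (sensors), over the fewer genes that it left. Gene means gave medians of -0.0046 (export), 0.20 (Argonaute) and -0.0043 (effectors), with 1 Argonaute, 2 sensor and 0 effector calls. Over all genes that fit called 616, against 327 with 1 probe set a gene. A pseudocount of 16 gave 1 sensor call. Leaving out a siRNA array gave medians of 0.021 to 0.15 (nuclear), 0.010 to 0.033 (export), 0.13 to 0.15 (Argonaute), -0.13 to -0.062 (effectors), 0.44 to 0.62 (sensors), -0.24 to -0.17 (polymerase III) and 0.038 to 0.26 (hosts, the lower without siRNA array 2). The causes were not tested. No paired analysis was possible because the scrambled group has 1 array. With an array left out no residual degree of freedom remains, so those values have no test.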
